A study of Mus musculus with 139 samples.

Results

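The cytosolic ribosomal protein genes were followed through mouse embryonic stem cells (ESCs) in which EXOSC2, a subunit of the RNA exosome, can be degraded on demand. Members were the protein-coding genes whose names begin with Rpl or Rps and a digit, together with Rplp0, Rplp1, Rplp2 and Rpsa, without the Rps6k kinases. The rule gave 94 of 52885 annotated genes. They comprised 76 core subunit genes (45 of the large and 31 of the small subunit), 8 paralogs or similarly named genes (Rpl3l, Rpl7l1, Rpl10l, Rpl22l1, Rpl36al, Rpl39l, Rps27l and Rps19bp1) and 10 retrocopies annotated as coding, such as Rps27rt and Rps12-ps3. Rps19bp1 matches by name only: it encodes a protein that binds RPS19 and is not a ribosomal subunit.

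All libraries came from AID-FBEXOSC2 ESCs, 1 line in which EXOSC2 carries an auxin-inducible degron, or from cells derived from it. Degradation was started with 0.5 mM of the auxin IAA, and the 0 h groups received none. ESCs and iMEFs were sampled for total RNA, without ribosomal RNA, at 0, 4 and 20 h; iMEFs are attached, mainly fibroblast cells obtained by differentiating the same ESCs with retinoic acid. For RAD0 and RAD1 cells the libraries held polyadenylated RNA at 0, 4 and 20 h. RAD0 cells were kept without retinoic acid, and RAD1 cells had spent a day in 2 µM retinoic acid without LIF. Nascent RNA labelled with 5-EU was measured at 0, 1, 2 and 4 h. Cytosolic (cyto), nucleoplasmic (np), insoluble chromatin (chrRNP) and whole-cell (wcl) RNA was measured at 0 and 4 h, and polyadenylated RNA of the washed insoluble nuclear pellet (RNPmesh) at 0, 4 and 12 h. A sucrose gradient of native nuclear lysate was read in fractions 2 to 9 at 0 and 12 h, with 1 library per fraction. Every other RNA group had 2 libraries, and nothing in the labels says that these were separate cultures, so p-values measure the spread between these libraries, which may be technical. No IAA-treated cells without the degron were analysed here, so an effect of IAA itself and one of EXOSC2 loss cannot be told apart.

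Each cytosolic ribosome contains 1 copy of most of these proteins, so cells make them in near-equal numbers, and the P-stalk proteins RPLP1 and RPLP2 are an exception that is present in several copies. Their mRNAs are short, abundant and, in mammals, begin with a 5′ terminal oligopyrimidine (TOP) tract, a C followed by further pyrimidines, through which mTOR and LARP1 control translation. The genes have many processed pseudogenes, several host snoRNAs in their introns, and a few have paralogs that can enter the ribosome in place of the core protein.

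Start-site windows of 30 bases from RefSeq (GRCm38.p6), 10 before and 20 from the annotated start onward, show the TOP-like tract, printed in capitals from the C at which it was counted; pyrimidines just before that C stay in lower case. The first pair are core genes with long tracts, Rps6 and Rps27 are core genes at very low values in total RNA, Rps27rt is the retrocopy of Rps27, and Rpl22l1 and Rps27l are the paralogs whose changes lay farthest apart after IAA.
Rpl13a (chr7:45128726-45128755, minus strand): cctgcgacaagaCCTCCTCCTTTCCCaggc
Rpl27a (chr7:109519185-109519214, plus strand): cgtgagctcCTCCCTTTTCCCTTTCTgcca
Rps6 (chr4:86857348-86857377, minus strand): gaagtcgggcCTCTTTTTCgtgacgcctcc
Rps27 (chr3:90213629-90213658, minus strand): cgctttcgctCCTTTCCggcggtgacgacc
Rps27rt (chr9:114982720-114982749, minus strand): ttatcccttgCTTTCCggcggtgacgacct
Rpl22l1 (chr3:28805498-28805527, plus strand): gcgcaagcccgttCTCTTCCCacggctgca
Rps27l (chr9:66946076-66946105, plus strand): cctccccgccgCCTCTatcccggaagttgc

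The windows of Rps27 and Rps27rt share an unbroken stretch of 19 bases, so a read from this end of the transcript cannot be assigned by these bases. A TOP-like tract was counted from the C nearest the annotated start, within 5 bases of it, from which at least 5 pyrimidines followed without a break, that C included. Of the 76 core genes, 56 matched the RefSeq promoter table, and 26 of them (46.4%) had such a tract, with a median length of 7.5 bases. The tract was present in 17.3% of all 19911 promoters and in 18.4% of the 8037 other coding genes tested in ESC total RNA, with a median length of 5 bases in both. Among the 300-base promoters, the ETS-like word CCGGAAG stood on either strand in 23 of the 56 core genes (41.1%), against 11.1% of all promoters and 20.9% of the other tested coding genes. The YY1-like word AAGATGGC was in 7.14%, 3.09% and 5.45% of these groups, the SP1-like word GGGCGG in 58.9%, 43.4% and 69.0%, and the TATA word TATAAA in 8.93%, 13.2% and 6.06%. These are matches of letters around annotated starts, with no test.

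H3K27ac, a histone mark of active promoters, was deposited as 1 peak list at 0 h (16239 peaks) and 1 at 4 h (20449 peaks). All 56 core genes with a start site had a peak within 1 kb at 0 h, and all 56 at 4 h (100%, exact 95% binomial interval 93.6 to 100%). Of the other coding genes tested in ESC total RNA, 71.1% had one at 0 h and 72.0% at 4 h. Of the 8 paralogs or similarly named genes, 4 had a peak at 0 h and 5 at 4 h. The gene with a peak at 4 h only was Rps19bp1, which is not a ribosomal subunit. Rps27rt, the only retrocopy with a start site, had none at either time. The lists carry positions without replicates, and the interval covers counting error only.

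The libraries matched their labelled cells by marker genes. All 7 ESC markers were above 1 FPKM in untreated ESCs, RAD0 and RAD1 cells, and in iMEFs all 10 fibroblast markers and 1 of the 7 ESC markers were. The 6 retinoic acid markers summed to 787 to 788 FPKM in RAD1 and to 5.76 to 7.49 in RAD0. Primitive endoderm markers summed to 16.2 to 17.8 FPKM in RAD1 cells and 0.837 to 0.946 in RAD0 cells before IAA. Exosc2 RNA averaged 3.25 ± 0.711 FPKM (SD, n = 2) in untreated ESCs and 0.989 ± 0.0728 at 20 h; the degron acts on the protein, so this RNA does not check the depletion. The replicates of 2 groups stood apart: replicate 2 of RNPmesh at 0 h had a summed value of 587804 FPKM against 317956, and the members took 0.342% of the summed value in replicate 1 of untreated chrRNP and 0.995% in replicate 2. The protocols name spike-in RNAs, and whether the values were scaled to them was not stated in the sources used here. In bulk RNA, fewer cells and less RNA per cell cannot be told apart.

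Before IAA, the core genes spanned a much wider range in total RNA than in nascent RNA. In untreated ESCs their mean FPKM ran from 0.192 for Rps6 to 1363 for Rpl8, with a median of 27.4; 6 of the 76 lay below 1, 23 below 10 and 23 at 100 or more. The 90th percentile was 459 times the 10th. In nascent RNA, given as RPKM over the whole gene span, they ran from 3.48 for Rpl18 to 75.1 for Rpl3, with a median of 19.8, and the same ratio was 3.69. In the other libraries this ratio was 118 in chrRNP, 137 in RAD0, 146 in RAD1, 166 in wcl and 174 in cyto. It was 180 in np, 371 in iMEFs and 495 in RNPmesh.

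**Figure D1:**
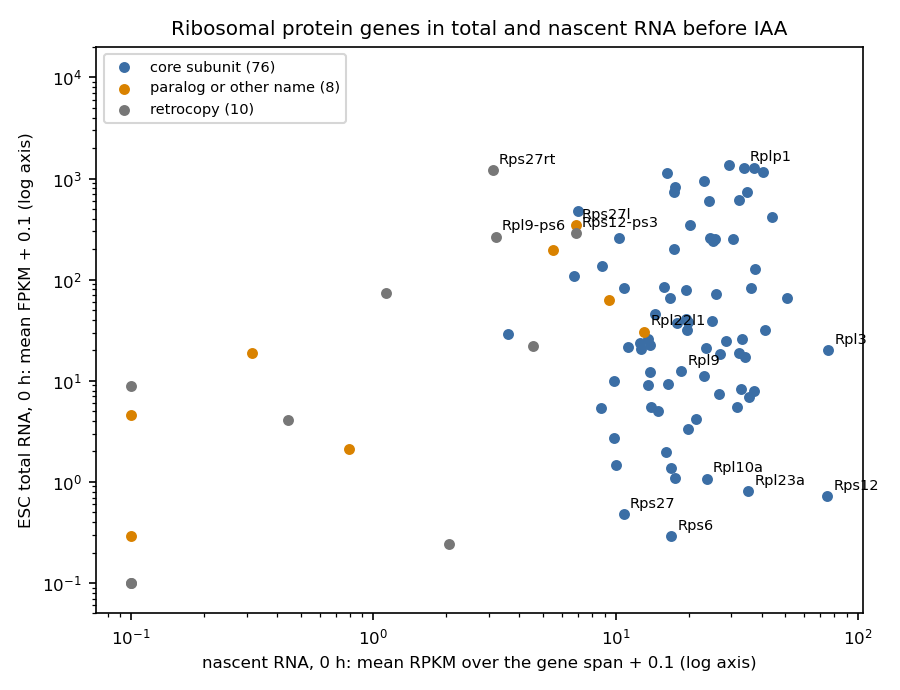
Mean level of each of the 94 members in untreated ESCs, nascent RNA in RPKM over the gene span + 0.1 on the x axis and total RNA in FPKM + 0.1 on the y axis, both logarithmic, with 1 point per gene coloured by class. Core genes form a narrow vertical band, with medians of 19.8 RPKM and 27.4 FPKM, while their total RNA values run from 0.192 to 1363 FPKM.

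Low values of core genes often stood beside high values of named retrocopies. The annotation holds 281 named copies of 58 core genes, coding or not, and in untreated ESCs the copies of 30 core genes summed to more than the gene itself. Rps6, a small subunit protein that is phosphorylated downstream of mTOR, was at 0.0952 and 0.288 FPKM in the 2 libraries, while Rps6-ps4 averaged 614. Rps27 was at 0.488 and 0.267 FPKM and its retrocopy Rps27rt at 1167 and 1255. In these deposited values both core genes were far below their copies.

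Rpl37 averaged 5.40 FPKM beside 1146 for Rpl37rt, Rpl3 averaged 20.0 beside 522 for Rpl3-ps1, and Rpl10a averaged 0.973 beside 554 for Rpl10a-ps1. With gene and copies added, only 4 of the 21 families whose gene lay below 10 FPKM stayed below 10. In nascent RNA, which contains introns, a copy exceeded its gene in 3 families. Rps27 was at 5.05 and 16.3 RPKM there against 0 and 6.01 for Rps27rt, so the order seen in total RNA was turned round in the means. Rps6 was at 14.5 and 19.3 RPKM, with 18.1 for its highest copy. Across the 76 core genes, Spearman's rho between level and number of named copies was -0.38 in total RNA and -0.07 in nascent RNA, as a description over genes that share the same libraries. A value printed for a gene with a near-identical copy is therefore uncertain, because the division of its reads between gene and copy rests on the authors' counting.

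Changes were tested with limma on log2(value + 1) over all genes at 1 or more in at least 2 libraries of a table, with Benjamini-Hochberg adjustment over all genes of the comparison and a threshold of 0.05; fold changes on this scale understate those of low genes. Of the 94 members, 70 passed the filter in all 6 tested tables, and Rpl36-ps4 and Rpl9-ps1 in none. Comparisons of several times in 1 table share their 0 h libraries.

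In ESC total RNA, ribosomal protein genes were lower as a block at 20 h and little changed, relative to other genes, at 4 h. At 4 h, 7 of 85 tested members fell and none rose, while 21.2% of all genes were called lower; the members' median log2 change was -0.29 and that of all 12461 genes -0.31. At 20 h, 79 of 85 fell and none rose, against 67.8% of all genes called lower, with medians of -1.44 and -0.76. From 4 to 20 h, 73 fell, against 48.6% of all genes, with medians of -1.18 and -0.43. The members took 3.79 and 3.41% of the summed FPKM at 0 h, 2.93 and 3.41% at 4 h and 2.03 and 1.89% at 20 h.

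The summed FPKM itself was 481878 and 492306 at 0 h and 333780 and 323866 at 20 h, and the 7 ESC markers together went from 969 to 1041 FPKM to 266 to 289; the part of either in the result was not tested. With the libraries rescaled to each other by the median ratio, which brings the median change of all genes to -0.01, 55 members were lower and 1 higher at 20 h. The 67.8% of all genes called lower belongs to the values before rescaling, and the share after it is not given here. At 4 h the rescaled values gave 0 lower and 2 higher. The 4 h count was also 0 without replicate 1 or 2 of 0 h or replicate 1 of 4 h, and 21 without replicate 2 of 4 h.

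**Figure D2:**
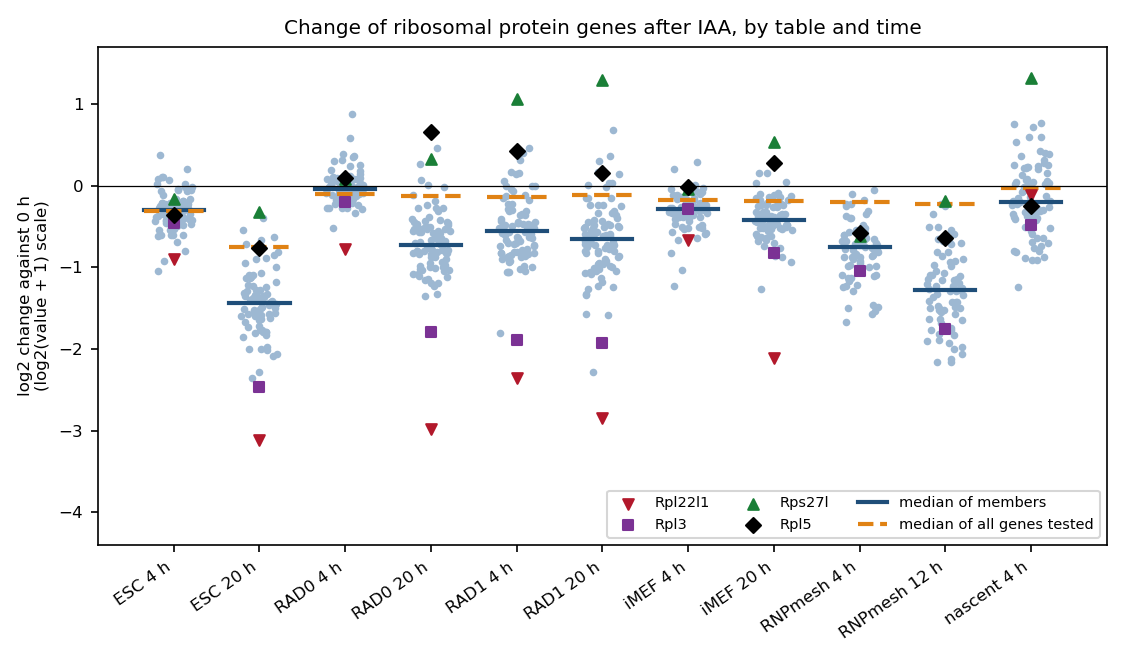
Change of each tested member against 0 h on the log2(value + 1) scale, by table and time, with 1 point per gene, solid lines for the median of the members and dashed lines for that of all genes tested. At 20 h in ESCs the members' median was -1.44 against -0.76 for all genes, with Rpl22l1 at -3.11 and Rps27l at -0.33.

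Both subunits took part at 20 h, when 67.8% of all genes were called lower with a median of -0.76. Of the core large subunit genes 39 of 43 fell (median -1.51), of the core small subunit genes 27 of 28 (median -1.47), and all 7 tested retrocopies fell (median -1.38). Rpl8, the most abundant large subunit gene, was at 1417 and 1309 FPKM at 0 h, 1093 and 1301 at 4 h and 532 and 466 at 20 h. Both 20 h libraries lay below the 4 earlier ones, and its log2 change at 20 h was -1.45 (SE 0.16, limma adjusted p = 0.000329).

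Rplp1, a protein of the P-stalk that recruits translation factors, went from 1371 and 1198 FPKM to 431 and 398 at 20 h (log2 change -1.63, limma adjusted p = 0.000229). Its partners Rplp0 (-1.53) and Rplp2 (-1.56) and the laminin receptor gene Rpsa (-1.33) also fell. Rpl27, a large subunit protein, went from 50.8 and 41.2 to 8.76 and 7.59 FPKM (-2.35), Rpl38, known for its role in translating Hox mRNAs, from 39.7 and 36.4 to 7.68 and 6.34 (-2.29), and Rps20, a head protein of the small subunit, from 70.6 and 60.7 to 14.7 and 14.5 (-2.09). With its named copies added, the change of Rpl38 was -1.51. In none of these genes did the 0 h and 20 h libraries overlap.

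Split by other features of the genes, the medians at 20 h lay between -1.15 and -1.56, with no test between the groups. The share of all genes called lower was 67.8%. Core genes with a TOP-like start had a median of -1.52 (22 of 24 fell) and those with none at the annotated start -1.46 (27 of 28). Core genes with an annotated snoRNA gene inside their span had a median of -1.41 (27 of 27) and the others -1.53 (39 of 44). Core genes at 10 FPKM or more at 0 h had a median of -1.56 (53 of 53) and lower ones -1.15 (13 of 18), a scale on which low genes are compressed. The share of these lower genes that fell was near that of all genes. With each gene's named copies added, 79 of 83 families fell; the Rps6 family changed by -1.31, that of Rps27 by -1.27, that of Rps12 by -1.38 and that of Rpl3 by -2.84.

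Rpl22l1 stood at the lower end. It encodes a paralog that can replace RPL22 and is known to be controlled in splicing and level by RPL22 itself. It was at 33.8 and 27.2 FPKM at 0 h, 16.8 and 14.9 at 4 h and 3.08 and 2.22 at 20 h. The 3 times did not overlap, and it was called lower at 4 h (log2 change -0.90, SE 0.17, limma adjusted p = 0.0222) and at 20 h (-3.11, SE 0.17, limma adjusted p = 7.71e-05). Its core partner Rpl22 went from 844 and 811 to 617 and 763 and then to 247 and 239 FPKM (-1.76 at 20 h).

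Rpl3, a protein at the peptidyl transferase centre whose own level is tied to alternative splicing and decay of its transcript, went from 23.0 and 17.0 FPKM to 3.59 and 2.06 (-2.47, SE 0.23, limma adjusted p = 0.000179). Among the other genes called at 4 h were Rpl11 (4.79 and 5.87 to 1.94 and 2.17 FPKM; -1.05, limma adjusted p = 0.0258) and Rpl9 (14.1 and 10.5 to 6.35 and 5.57; -0.92). With its named copies added, the Rpl9 change at 4 h was -0.28 and was not called (limma adjusted p = 0.184). RPL11, RPL5 and RPL23 bind MDM2 when ribosome assembly is disturbed. Rpl5 was at 12.4 and 9.92 FPKM at 0 h and 5.71 and 6.60 at 20 h (-0.76), and Rpl23 at 18.3 and 15.5 and then 8.90 and 8.93 (-0.85); after rescaling, the change of Rpl5 was 0.10.

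At the upper end lay Rps27l, a p53-inducible paralog of Rps27. It was at 363 and 324 FPKM at 0 h, 287 and 330 at 4 h and 280 and 267 at 20 h. The 20 h libraries lay below those of 0 h, but its change of -0.33 (SE 0.14) was not called (limma adjusted p = 0.0725). After rescaling its change was 0.63 and it was called higher. The other members not called at 20 h included Rpl19, Rpl24 and Rpl35, all below 6 FPKM in every library; with its named copies added, the change of Rpl19 was -0.86 and was called.

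**Figure D3:**
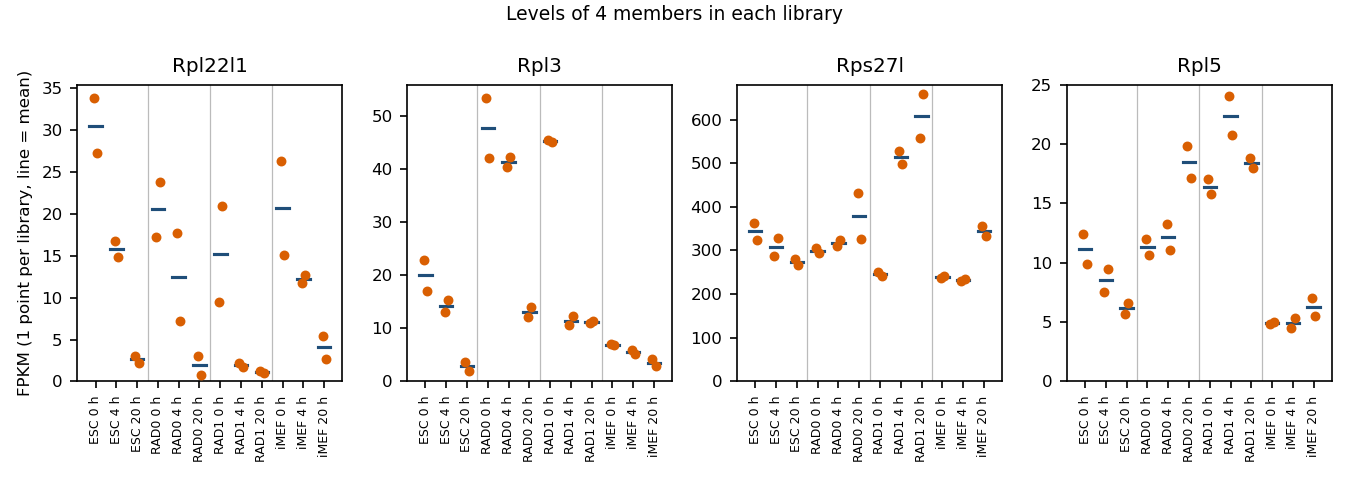
Level of Rpl22l1, Rpl3, Rps27l and Rpl5 in FPKM in each library of the ESC, RAD0, RAD1 and iMEF tables, with points for libraries and lines for the mean of each group. Rpl22l1 drops in all 4 kinds of cell, from 33.8 and 27.2 to 3.08 and 2.22 FPKM in ESCs, whereas Rps27l reaches 558 and 659 FPKM in RAD1 cells at 20 h.

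In polyadenylated RNA of RAD0 cells few members were called at 4 h and most were lower at 20 h. At 4 h, 3 of 90 tested members fell (Rpl9, Rps9 and Rpl7l1), against 13.5% of all genes called lower, with medians of -0.03 and -0.11; after rescaling no member was called, and leaving out 1 library gave 0 to 3. With its named copies added, Rpl9 changed by -0.02 and was not called (limma adjusted p = 0.949). At 20 h, 66 fell, against 33% of all genes, and 1 rose, against 18.4% of all genes. The medians were -0.72 for the members and -0.13 for all 15408 genes. Their share of the summed FPKM was 5.05 and 5.12% at 0 h, 5.29 and 5.30% at 4 h and 4.32 and 4.01% at 20 h.

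Rpl22l1 was again the member with the most negative change at 20 h, going from 17.3 and 23.8 FPKM to 3.01 and 0.802 (-2.99, limma adjusted p = 0.00111). Rpl3 went from 53.4 and 42.1 to 12.1 and 14 (-1.79). The member that rose was Rpl5, at 12.0 and 10.7 FPKM at 0 h and 19.8 and 17.1 at 20 h, with no overlap (0.66, SE 0.11, limma adjusted p = 0.00139). Rps27l was at 306 and 294 FPKM and then 433 and 327, a change of 0.33 that missed the threshold (limma adjusted p = 0.0517).

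The response of RAD1 cells differed from that of RAD0 cells for more members at 4 h than at 20 h. In RAD1, 61 of 90 members were lower at 4 h, against 32.7% of all genes, and 3 were higher, against 18.1%; the medians were -0.56 and -0.14. At 20 h, 64 were lower, against 33.8%, and 2 higher (Rps19bp1 and Rps27l), against 23.1%, with medians of -0.65 and -0.11. The test of the difference between the RAD1 and RAD0 changes at 4 h called 32 members more negative in RAD1, against 14.5% of all genes, and 1 more positive, against 12.7%. The median difference of the members was -0.54 and that of all genes -0.02. At 20 h it called 6 more negative, against 11.6%, and 10 more positive, against 13.9%, with medians of 0.02 for both. Both 20 h shares of the members were thus below those of all genes.

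The 20 h split between more negative and more positive was 7 and 2 without replicate 2 of RAD0 at 20 h, and 5 and 4 without replicate 2 of RAD1 at 0 h. The number called was 7 without replicate 1 of RAD1 at 0 h and 8 without replicate 1 of RAD0 at 0 h. Primitive endoderm and retinoic acid markers were higher in RAD1 than in RAD0, as given with the marker genes; their part in these differences was not tested.

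Rpl3 showed the difference at 4 h most simply. In RAD0 it was at 53.4 and 42.1 FPKM at 0 h and 40.4 and 42.3 at 4 h, and in RAD1 at 45.4 and 45.1 and then 10.6 and 12.3. The RAD0 libraries of the 2 times overlapped and those of RAD1 did not, and the changes differed by -1.70 (SE 0.16, limma adjusted p = 0.000212). Rpl39l, a paralog of Rpl39 that is best known from male germ cells, was at 12.0 and 6.87 FPKM and then 10.4 and 9.37 in RAD0, and at 10.4 and 9.61 and then 2.26 and 2.04 in RAD1, a difference of -1.91 (SE 0.36, limma adjusted p = 0.00528).

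Rpl26, a large subunit protein that also binds p53 mRNA, had a difference of -1.16, and Rplp0 one of -0.55. The difference for Rpl22l1, -1.58, was not called (limma adjusted p = 0.133); its RAD1 libraries were at 9.54 and 20.9 FPKM at 0 h and 2.19 and 1.78 at 4 h (-2.35), and its RAD0 libraries at 4 h at 17.8 and 7.26.

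Rps27l moved the other way. In RAD1 it rose from 251 and 241 FPKM at 0 h to 528 and 499 at 4 h (1.06, SE 0.12, limma adjusted p = 0.000156) and to 558 and 659 at 20 h (1.30). The 4 treated libraries lay above both untreated ones by a wide margin. Its change differed from that in RAD0 by 0.98 at 4 h (limma adjusted p = 0.00406) and 0.97 at 20 h (limma adjusted p = 0.00436). At 4 h in RAD1, Rpl5 (17.0 and 15.8 to 24.0 and 20.8 FPKM; 0.42) and Rpl15 (48.7 and 42.4 to 56.6 and 57.1; 0.32) were also higher. With its named copies added, the Rpl15 change was -0.01. Rps19bp1 was at 12.3 and 14.9 FPKM at 0 h and 26.7 and 18.7 at 20 h (0.68).

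Before IAA, RAD1 and RAD0 cells differed by small amounts. RAD1 cells had retinoic acid and no LIF, and the parts of these cannot be told apart. Between RAD1 and RAD0 at 0 h, 20 members were lower in RAD1, against 19% of all genes, and 1 (Rpl5) was higher, against 27.7%; the share lower was near that of all genes, and the medians were -0.17 and 0.08. Rps12 (3.73 and 2.37 against 0.971 and 0.277 FPKM) and Rps27 (1.62 and 2.2 against 0 and 0.325) had the most negative values, -1.33 each, at very low levels. With named copies added these were -0.20 and -0.24, and neither was called. Rps19bp1 was at 30.1 and 29.3 FPKM in RAD0 and 12.3 and 14.9 in RAD1 (-1.08). The number called was 37 after rescaling, and 12 without replicate 2 of either group.

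In iMEFs fewer members were called than in ESCs. At 4 h limma called none of the 78 tested members, against 1.63% of all genes in either direction; 18 had an unadjusted p below 0.05, as did 26.4% of all genes, and the medians were -0.29 and -0.17. At 20 h, 19 were lower, against 22.2% of all genes, and 1 was higher, against 5.21%, with medians of -0.42 and -0.19; the share lower was near that of all genes. Between 4 and 20 h, 1 was lower (5.72% of all genes) and 1 higher (2.11%). The 20 h call rested on single libraries: 46 members were called without replicate 1 of 20 h, 9 without replicate 2 of 20 h, 5 without replicate 1 of 0 h and 2 without replicate 2 of 0 h. It was 13 after rescaling (9 lower and 4 higher) and 7 without the filter on low values. The difference between the changes in ESCs and iMEFs was not tested, as the tables were deposited separately.

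Rpl22l1 and Rps27l were the extremes here too. Rpl22l1 was at 26.4 and 15.2 FPKM at 0 h, 11.8 and 12.7 at 4 h and 5.47 and 2.68 at 20 h, with no overlap (20 h: -2.11, SE 0.32, limma adjusted p = 0.00626). Rps27l was at 236 and 242 FPKM at 0 h, 231 and 234 at 4 h and 357 and 334 at 20 h. Both 20 h libraries lay above the other 4, and the gene was called higher (0.53, SE 0.11, limma adjusted p = 0.0159). Rpl3 was lower (7.06 and 6.79 to 4.17 and 2.87 FPKM; -0.83), and Rpl36a, whose values never passed 3 FPKM, had a change of -1.27, or -0.53 with its named copies added.

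Nascent RNA gave no called member at any time. Limma called 0 of 88 members at 1 h (0.0451% of all genes were called), 0 at 2 h (0.0113%) and 0 at 4 h (1.9%). At an unadjusted p below 0.05 there were 7, 7 and 15 members, beside 5.49%, 8.10% and 17.7% of all genes. The medians at 4 h were -0.20 for the members and -0.03 for all 8876 genes. The depth was 4482600 to 9241330 reads in genes per library, and the median core gene had 379 to 711 reads. At 4 h Rps27l had the highest change of all members: it was at 8.26 and 5.23 RPKM at 0 h, 5.88 and 7.30 at 1 h, 11.2 and 9.30 at 2 h and 21.2 and 15.3 at 4 h. The 4 h libraries lay above the 6 others, and the change was 1.32 (SE 0.26), which was not called (limma adjusted p = 0.0849). Rpl22l1 was at 13.3 and 12.8 RPKM at 0 h and 11.7 and 12.3 at 4 h (-0.11), and Rpl3 at 71.3 and 79.0 and then 48.9 and 58.9 (-0.48, limma adjusted p = 0.166). For neither gene was a change in nascent RNA called, whereas both were called lower in ESC total RNA at 20 h, a time at which nascent RNA was not analysed here.

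In the fractions before IAA, ribosomal protein RNA was concentrated in the cytosol. Between chrRNP and cyto, 76 of 89 members were lower in chrRNP, against 63.4% of all genes, and 1 was higher, against 14.3%; the medians were -2.53 and -0.88. Between np and cyto, 75 were lower in np, against 33.8%, and 2 higher, against 28%, with medians of -1.26 and -0.11. After rescaling, the chrRNP comparison had 67 lower and 12 higher. The members took 5.29 and 5.10% of the summed FPKM in cyto, 3.13 and 2.98% in wcl and 1.90 and 2.2% in np. Whether the values of different fractions share 1 scale per cell was not stated.

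Rplp1 was at 2945 and 2782 FPKM in cyto, 856 and 939 in np and 263 and 586 in chrRNP. Its 3 fractions did not overlap (chrRNP against cyto -2.86, limma adjusted p = 2.31e-05). Rps25, which is needed for translation from some internal ribosome entry sites, was at 230 and 164 in cyto and 11.7 and 23.8 in chrRNP (-3.46, or -2.53 with its named copies added). Rpl9, a large subunit protein, was the member higher in chrRNP: 7.65 and 6.71 FPKM in cyto, 18.4 and 17.0 in np and 21.3 and 24.5 in chrRNP (1.55, SE 0.14, limma adjusted p = 4.44e-06).

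With the 9 named copies of Rpl9 added, this comparison was -2.56 for chrRNP and -0.99 for np, so the direction differed between the gene alone and the family. It also differed for Rpl10a, the second member higher in np (0.72 alone and -1.10 with copies). Rpl31, at 49.0 and 50.9 FPKM in cyto and 44.9 and 49.7 in chrRNP (-0.08), and Rpl37 (0.09 alone, -2.44 with its copy) were not called; after rescaling the change of Rpl31 was 1.35, and with its named copies added -1.71. With copies added throughout, 81 of 83 families were lower in chrRNP and 72 of 83 in np. Before copies were added, 63.4% and 33.8% of all genes were called lower in these comparisons. The spans of 29 core genes hold 57 annotated snoRNA genes. Of the 47 tested, 32 were higher in chrRNP than in cyto, against 14.3% of all genes, and none lower, with a median of 5.65. Whether they lie on the host's strand was not checked.

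**Figure D4:**
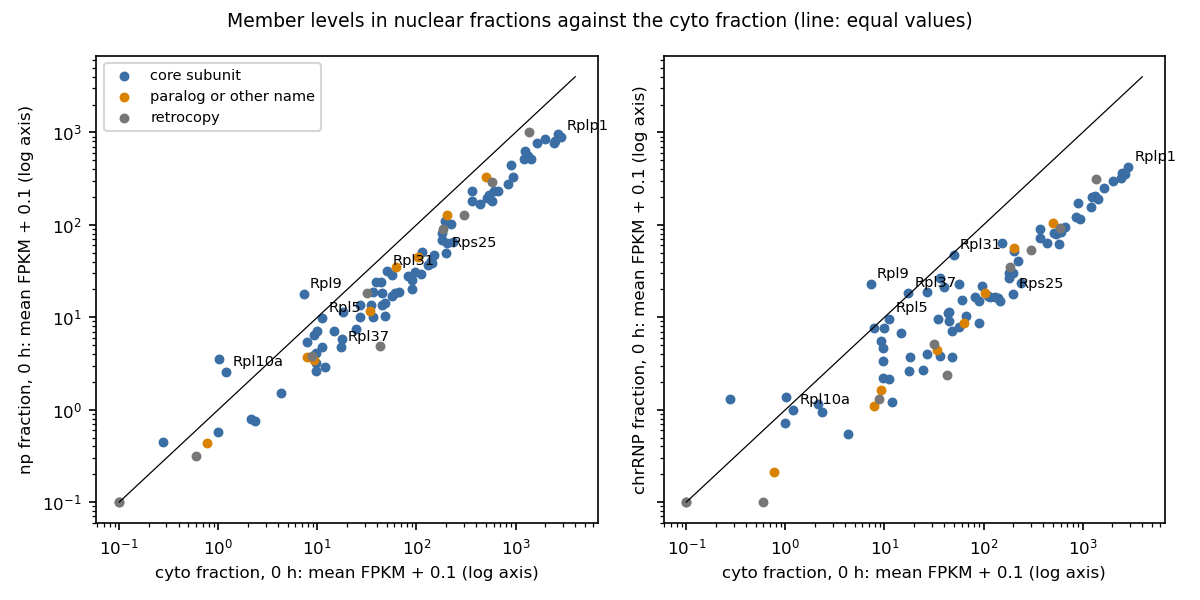
Mean FPKM + 0.1 of each member at 0 h in the np fraction (left) and the chrRNP fraction (right) against the cyto fraction, on logarithmic axes with a line at equal values and points coloured by class. Most points lie under the line, while Rpl9 lies above it in both panels, at 7.65 and 6.71 FPKM in cyto and 21.3 and 24.5 in chrRNP.

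After 4 h of IAA the fractions showed few called members. In cyto limma called 0 of 89 (6.45% of all genes were called), with 2 at an unadjusted p below 0.05, beside 16.6% of all genes, and medians of 0.14 and 0.04. In np, 2 fell (Rpl10-ps3 and Rpl9), against 23.4% of all genes, with medians of -0.17 and -0.29. In wcl, 2 fell (Rpl9 and Rpl10a), against 13.5%, with medians of -0.09 and -0.23. Rpl9 went from 18.4 and 17.0 to 11 and 12.9 FPKM in np (-0.53, limma adjusted p = 0.0182) and from 14.6 and 13.2 to 8.98 and 9.73 in wcl (-0.52, limma adjusted p = 0.0294). Neither pair of groups overlapped. With its named copies added, the Rpl9 change was -0.30 in np (limma adjusted p = 0.487) and -0.17 in wcl (limma adjusted p = 0.736), and that of Rpl10a in wcl was -0.36 (limma adjusted p = 0.452), so none of these calls was kept. After rescaling, and in wcl without any 1 library, no member was called in np or wcl; in np leaving out 1 library gave 0 to 1.

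In chrRNP at 4 h, 1 member (Rpl10l, a paralog of Rpl10; 0.704 and 1.30 to 1.95 and 2.66 FPKM) was higher, against 7.95% of all genes, with medians of 0.54 and 0.21. This comparison turned on the untreated replicates, which stood apart: 55 members were called without replicate 2 of 0 h (54 higher), 2 without replicate 1 of 4 h and 0 without replicate 1 of 0 h or replicate 2 of 4 h. After rescaling, 8 were lower and 1 higher. The 4 h changes in chrRNP and cyto differed for 0 members (0.135% of all genes; at an unadjusted p below 0.05 by limma, 2 members and 8.76% of all genes), or 30 without replicate 2 of chrRNP at 0 h. Those in np and cyto also differed for 0 members (1% of all genes; at an unadjusted p below 0.05, 4 members and 21.9% of all genes).

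In the washed insoluble pellet a larger share of the members than of all genes fell. At 4 h, 35 of 76 tested members were lower, against 19.1% of all genes, with medians of -0.76 and -0.20. At 12 h, 62 were lower, against 31.6%, with medians of -1.27 and -0.23. From 4 to 12 h, 7 were lower, against 3.8%, with medians of -0.49 and -0.00. None was higher at any time. The members took 2.35 and 1.18% of the summed FPKM at 0 h, 1.23 and 1.52% at 4 h and 1.14 and 1.22% at 12 h; replicate 2 of 0 h, the library with the summed value of 587804 FPKM, lay within the range of the treated libraries. At 12 h the count was 54 after rescaling and 52 to 59 without 1 library, replicate 2 of 0 h included. At 4 h it was 15 after rescaling, 7 without the filter, 0 without replicate 1 of 4 h, 6 without replicate 2 of 4 h, and 22 and 19 without replicate 1 or 2 of 0 h. From 4 to 12 h it was 0 without either replicate of 4 h, 3 without either of 12 h, and 11 after rescaling.

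Rpl31, an exit-tunnel protein, was at 44.4 and 55.5 FPKM at 0 h, 15.5 and 19.5 at 4 h and 11.6 and 9.69 at 12 h (12 h: -2.12). The 3 times did not overlap. Rps19, mutated in Diamond-Blackfan anaemia, was at 40.9 and 28.2 FPKM, then 12.8 and 14.7, then 5.94 and 7.85 (-2.16, SE 0.24, limma adjusted p = 0.000291). Rpl9 went from 39.1 and 34.4 to 9.12 and 14.9 and then 10.2 and 6.92 FPKM (-1.57 at 4 h, -2.0 at 12 h), and with its named copies added it changed by -0.88 and -1.51, both called. Rps27l was at 126 and 74.6 FPKM at 0 h and 72.3 and 101 at 12 h, overlapping (-0.18, limma adjusted p = 0.641). Rpl22l1 did not pass the filter in this table. Exosc2 RNA itself went from 9.58 ± 1.60 to 2.23 ± 0.0542 FPKM (SD, n = 2).

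Along the sucrose gradient of nuclear lysate, ribosomal protein RNA lay in light fractions and shifted towards heavier ones. Each gene's position is its mean fraction number weighted by FPKM, for genes with a summed value of at least 80, with no replicate. The 58 members had a median position of 3.34 at 0 h and 3.82 at 12 h, and all 3428 genes 4.49 and 4.98. All 58 members shifted to heavier fractions, as did 3324 of all genes, with median shifts of 0.46 and 0.48; the members' shift was thus near that of all genes. With each fraction scaled to the same total, 52 of 55 members and 3855 of all 3991 genes shifted to heavier fractions. The median shifts were 0.38 and 0.44, and the lowest shift of a member was -0.30. Without this scaling, the members' shifts ran from 0.09 for Rpl34 and 0.10 for Rpl31 to 0.76 for Rpl15. The core genes took 2.48, 3.13 and 2.38% of the summed FPKM in fractions 2, 3 and 4 at 0 h and 1.56, 2.16 and 2.25% at 12 h. In fractions 5 and 6 they took 1.55 and 0.877% and then 1.91 and 1.18%.

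**Figure D5:**
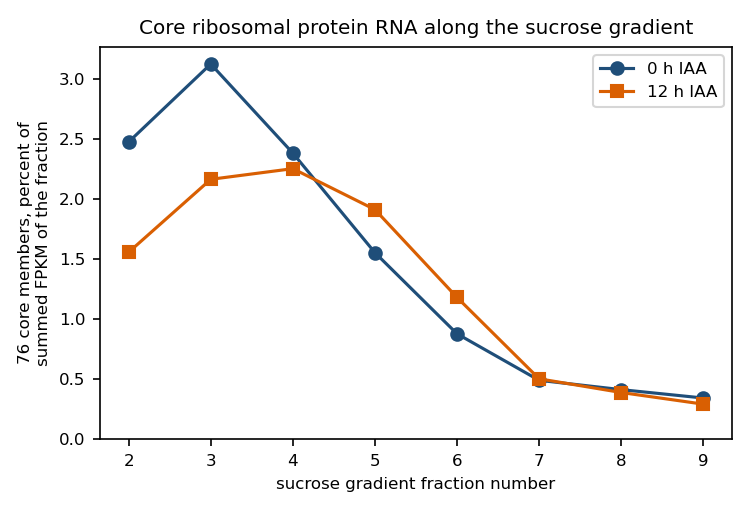
Share of the summed FPKM taken by the 76 core genes in each sucrose fraction from 2 to 9, at 0 h and 12 h of IAA, with 1 library per point and no error. The highest share moves from 3.13% in fraction 3 at 0 h to 2.25% in fraction 4 at 12 h, and the lines meet from fraction 7 on.

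Other genes of the same pathways were read from lists that were set with earlier results in view, at 20 h in ESC total RNA. There 67.8% of all genes were called lower, with a median change of -0.76. Fau (-0.89) and Rack1 (-1.07), which encode ribosomal proteins under other symbols, both fell. Of 25 other genes listed as having TOP mRNAs, 24 fell and 1 rose (Vim), with a median of -1.48. Of 24 tested regulators of TOP translation, such as mTOR pathway genes, 22 fell and 2 rose (Sesn2 and Ddit4, both inhibitors of mTOR signalling, Ddit4 by 2.34), with a median of -0.91. All 18 genes for the handling and nuclear import of ribosomal proteins fell, with a median of -1.34, and all 9 promoter factors, with a median of -0.97. The medians of the regulators and the promoter factors lay nearest to that of all genes.

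Genes of the p53 axis went against this direction, and Rps27l is a known p53 target. At 20 h in ESCs, 5 of 7 rose, against 9.47% of all genes called higher. Among them were Mdm2, the p53 ubiquitin ligase (2.53), Cdkn1a, a cell cycle inhibitor (2.37), and Plk2 (3.11). Trp53 itself fell (-0.83, near the median of -0.76 for all genes). In RAD1 cells all 7 rose at 4 h (18.1% of all genes), with Mdm2 at 2.84, and in RAD0 at 20 h 6 of 7 did (18.4%). In iMEFs at 20 h 5 of 7 rose (Mdm2 at 1.39), against 5.21% of all genes, and in nascent RNA at 4 h 4 of 7 (Mdm2 at 3.38), against 1.57%. Rps27l was called higher in RAD1 at 4 and 20 h and in iMEFs at 20 h, and not in ESC total RNA, RAD0 or nascent RNA. Whether p53 had a part in the changes of Rps27l was not tested.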

How the data were processed

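Values were used as deposited: the authors gave FPKM per gene for total, fraction, RNPmesh, retinoic acid, iMEF and sucrose RNA, and RPKM per gene span for nascent RNA (RPKM read from the values: 96.8 to 97.8% of low values fell within 0.1 of a whole number of reads). Per the submitters' processing notes, tools included Trim Galore, TopHat2 2.0.11, Cufflinks 2.0.2, Bowtie2 2.2.6, bedtools and MACS2, with mm10 and dm6; their roles, and whether spike-ins scaled the tables, were not stated. The authors' H3K27ac peak lists gave positions only. Depth is unknown for FPKM tables.

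All genes of a table were fitted with limma 3.58.1 (R 4.3.3; trend, groups only) on log2(value + 1), after a filter of 1 or more in at least 2 libraries, with Benjamini-Hochberg adjustment within each of 27 comparisons. The script was tested on simulated data. Further steps used Python 3.11.15 and pandas 2.3.3. Named genes were the 3 lowest and 3 highest members of each comparison, members called against the majority, paralogs with their partners, MDM2-binding and P-stalk genes, and the most and least abundant. Members and lists were chosen with earlier results of these data known. Alternatives: pseudocount 0.1, no filter, rescaled libraries, no trend, a replicate block, each library left out and, chosen after seeing the data, members summed with named retrocopies. For 1 gene of the lists no result is reported here.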

Additional observations from a re-analysis of the deposited data

Results flagged for a closer look

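The changes of some members after IAA differed between RAD1 and RAD0 cells by the limma test of the difference itself. At 4 h, 32 members had a more negative change in RAD1, against 14.5% of all genes, and 1 a more positive one, against 12.7%. Of the genes named, Rpl39l differed by -1.91, Rpl3 by -1.70, Rpl26 by -1.16 and Rps27l by 0.98 on the log2(value + 1) scale. At 20 h, 6 members had a more negative change in RAD1, against 11.6% of all genes, and 10 a more positive one, against 13.9%. That split was 7 and 2 without replicate 2 of RAD0 at 20 h and 5 and 4 without replicate 2 of RAD1 at 0 h. Both shares of the 90 tested members at 20 h were below those of all genes, and the medians were 0.02 for both. Rpl39l differed by -1.34, Rps16 by -1.16, Rps19bp1 by 0.96, Rps27l by 0.97 and Rps12 by 1.21; Rps12 stayed below 4 FPKM in all 12 libraries. With named copies added, the difference was -0.049 for Rps12 and -0.15 for Rps16, and neither was called.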

How the results depend on the processing

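Counts are of members called in either direction. The shares of all genes called under the alternatives below are not given here. Without the filter on low values the count was 0 in ESCs at 4 h, 7 in iMEFs at 20 h, 0 in iMEFs from 4 to 20 h, 1 in np, 0 in chrRNP and 1 in wcl at 4 h, 7 in RNPmesh at 4 h, 0 in RNPmesh from 4 to 12 h and 10 for the 20 h difference between RAD1 and RAD0. With rescaled libraries it was 2 in ESCs at 4 h and 9 in chrRNP at 4 h, both with the direction turned, 13 and 9 in iMEFs at 20 h and from 4 to 20 h, 0 in np and wcl, 15 and 11 in RNPmesh at 4 h and from 4 to 12 h, 0 in RAD0 at 4 h and 37 between RAD1 and RAD0 at 0 h. Without the trend, iMEFs from 4 to 20 h had 1. With a pseudocount of 0.1, np and wcl had 1 each. With copies summed, iMEFs from 4 to 20 h had 4, and np and wcl 0.

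The replicate numbers were not shown to pair the libraries: same-numbered libraries had correlations of their deviations from -0.03 to 0.15 in the ESC table, with 1 of 3 pairs above 0.1. With a replicate block the counts were 3 in ESCs at 4 h, 1 in iMEFs from 4 to 20 h and 4 in RNPmesh from 4 to 12 h; the block moved no other count by over 1.5 times.

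Leaving out 1 library gave 0 to 21 in ESCs at 4 h, 77 to 81 at 20 h and 67 to 73 from 4 to 20 h. In iMEFs it gave 0 to 1, 2 to 46 and 0 to 11, and in nascent RNA 0 throughout. In the fractions it gave 0 to 1 in cyto, 0 to 1 in np, 0 to 55 in chrRNP and 0 in wcl at 4 h, 75 to 79 and 54 to 72 for chrRNP and np against cyto, and 0 to 30 and 0 for the differences of their changes. RNPmesh had 0 to 22, 52 to 59 and 0 to 3. RAD0 had 0 to 3 and 59 to 69, RAD1 48 to 53 and 52 to 63, RAD1 against RAD0 12 to 16, and their differences 23 to 29 at 4 h and 7 to 17 at 20 h. The last was 9 with the direction turned without replicate 2 of RAD0 at 20 h or of RAD1 at 0 h.

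Of 758 alternatives for 72 named values, 639 kept direction and side of the threshold and 13 changed sign. Rescaled, Rps27l was 0.63 and Rpl5 0.10 in ESCs at 20 h, Rps27l 0.091 in RNPmesh at 12 h and Rpl31 1.35 in chrRNP against cyto. With copies summed, Rpl15 in RAD1 at 4 h was -0.012, Rps12 for the 20 h difference -0.049, Rpl9 and Rpl37 in chrRNP against cyto -2.56 and -2.44, and Rpl9 and Rpl10a in np against cyto -0.99 and -1.10. Rps27l in RNPmesh at 12 h ran from -0.55 without replicate 2 of 0 h to 0.19 without replicate 1 of 0 h, with 0.054 without replicate 1 of 12 h, and Rpl37 in chrRNP against cyto from -0.13 without replicate 2 of cyto to 0.30 without replicate 1 of cyto. The causes were not tested. The median sucrose shift was 0.457 with a summed value of at least 20, 0.467 with at least 200 and 0.378 with fractions scaled to 1 total. Depth is unknown for FPKM, and 2 libraries per group limit precision.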
